A study of Arabidopsis with 8 samples.

Results

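Glutathione S-transferases (GSTs) were described in the root and the shoot part of Arabidopsis thaliana seedlings. The genes were taken by name alone: every gene that the deposited tables call GST, followed by the class letter U, F, T, Z or L and a number. The rule uses no measured value, though it was set with earlier results of these data known. It gave 49 of the 25397 genes listed in at least 1 library, of which 28 belong to class U (tau), 13 to class F (phi), 3 to class T (theta), 3 to class L (lambda) and 2 to class Z (zeta). RefSeq's gene table (assembly TAIR10.1) held all 49 loci, with the same symbol for 47; it calls GSTU17 ERD9 and GSTF13 ATGSTF13. In all, 43 of the 49 passed the filter on low values, a mean of at least 1 FPKM over the 4 root or the 4 shoot libraries. The other 6 (GSTF3, GSTF5, GSTU3, GSTU12, GSTU15 and GSTU21) are given by level only.

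Seedlings were 5 days old. The 4 groups were roots of the saur41/40/71/72 quadruple mutant, roots of Col-0 (the wild type), the shoot part of the mutant and the shoot part of Col-0, with 2 RNA-seq libraries each. The 4 mutated genes belong to the SMALL AUXIN UP RNA (SAUR) family, whose small proteins are known for promoting cell expansion. The kind of mutation at each gene, the growth conditions and the number of seedlings per library were not given in the sources used here. Nothing says that libraries of 1 group are separate plantings, so every p-value below measures only the spread between these libraries, which may be technical.

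GSTs couple the tripeptide glutathione to electrophilic compounds, which tags herbicides, pollutants, products of oxidative damage and some metabolites of the plant itself for transport into the vacuole. The plant-specific tau and phi classes make up most of the family and hold the enzymes best known for detoxification of foreign compounds. Members of both classes also serve in the making or carrying of glucosinolates, camalexin and anthocyanins. Theta enzymes are known for reducing organic peroxides, zeta enzymes for the isomerisation of maleylacetoacetate in tyrosine breakdown, and lambda enzymes for thiol transfer instead of conjugation.

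Levels are in FPKM (fragments per kilobase of transcript, scaled to the mapped fragments of the library), a unit per length in which genes can be set side by side. Differences are in log2(FPKM + 1), which understates the change of genes at low FPKM, and are given with their standard error (SE) and the Benjamini-Hochberg adjusted p from limma over all 19985 tested genes. The tables list only values above 0, so a gene missing from a table is called listed at 0. Depth is unknown in absolute terms. Within a tissue its ratio to Col-0 replicate 1, estimated from genes under 0.5 FPKM, ran from 0.874 to 1.22. In shoot the ratio was 1.19 and 1.22 in the mutant libraries and 0.892 in Col-0 replicate 2. By this estimate the mutant shoot libraries were the deeper ones, which affects genes near 0 FPKM. Between 22684 and 22858 genes were listed in the root libraries and between 21355 and 22477 in the shoot libraries. The labelled organs matched their markers: the summed level of 7 root marker genes was 5575 to 6382 FPKM in root and 599 to 705 FPKM in shoot, where nearly all of it came from BGLU23 and EXPA7 and IRT1 were listed at 0 in all 4 libraries. The summed level of 7 photosynthesis genes was 61.4 to 71.9 FPKM in root and 34215 to 58875 FPKM in shoot. Of the mutated genes, SAUR72 had 16.9 and 16.3 FPKM in mutant root, against 23.4 and 31.6 in Col-0 root. In shoot it had 4.18 and 3.96 FPKM in the mutant, against 9.41 and 7.57 in Col-0. Of the 3 mutated genes that could be tested, 0 passed in either tissue by limma; SAUR72 had an unadjusted p of 0.00846 in root and 0.00209 in shoot. SAUR71 had 3.28 and 3.02 FPKM in mutant shoot, against 7.91 and 5.22 in Col-0 shoot (unadjusted p = 0.0189 by limma), and overlapped between the genotypes in root. SAUR41 overlapped in both tissues, and SAUR40 was at most 0.0990 FPKM in any library.

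The family had a higher summed level in root than in shoot, and a few genes carried most of it. The 49 genes summed to 7244 and 6850 FPKM in mutant root and to 7530 and 7487 in Col-0 root. In shoot they summed to 2270 and 2326 FPKM in the mutant and to 2539 and 1926 in Col-0. The ratio of the mean shoot sums, mutant over Col-0, depended on scaling. It was 0.690 after median-ratio rescaling over all 8 libraries and 0.717 after that within a tissue. The root to shoot ratio of the mean sums was 3.07 in the mutant and 3.36 in Col-0, and 1.65 and 1.21 after median-ratio rescaling over all 8 libraries. As a share of all FPKM in a library this was 1.06% to 1.12% in the 4 root libraries and 0.290% to 0.355% in the 4 shoot libraries. Members with a mean of at least 100 FPKM numbered 16 in mutant root, 16 in Col-0 root, 7 in mutant shoot and 4 in Col-0 shoot. Those under 1 FPKM numbered 7, 6, 21 and 23 in the same order of groups. The 5 highest members took 61% of the family sum in mutant root, 61.5% in Col-0 root, 72.3% in mutant shoot and 78.9% in Col-0 shoot.

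**Figure D1:**
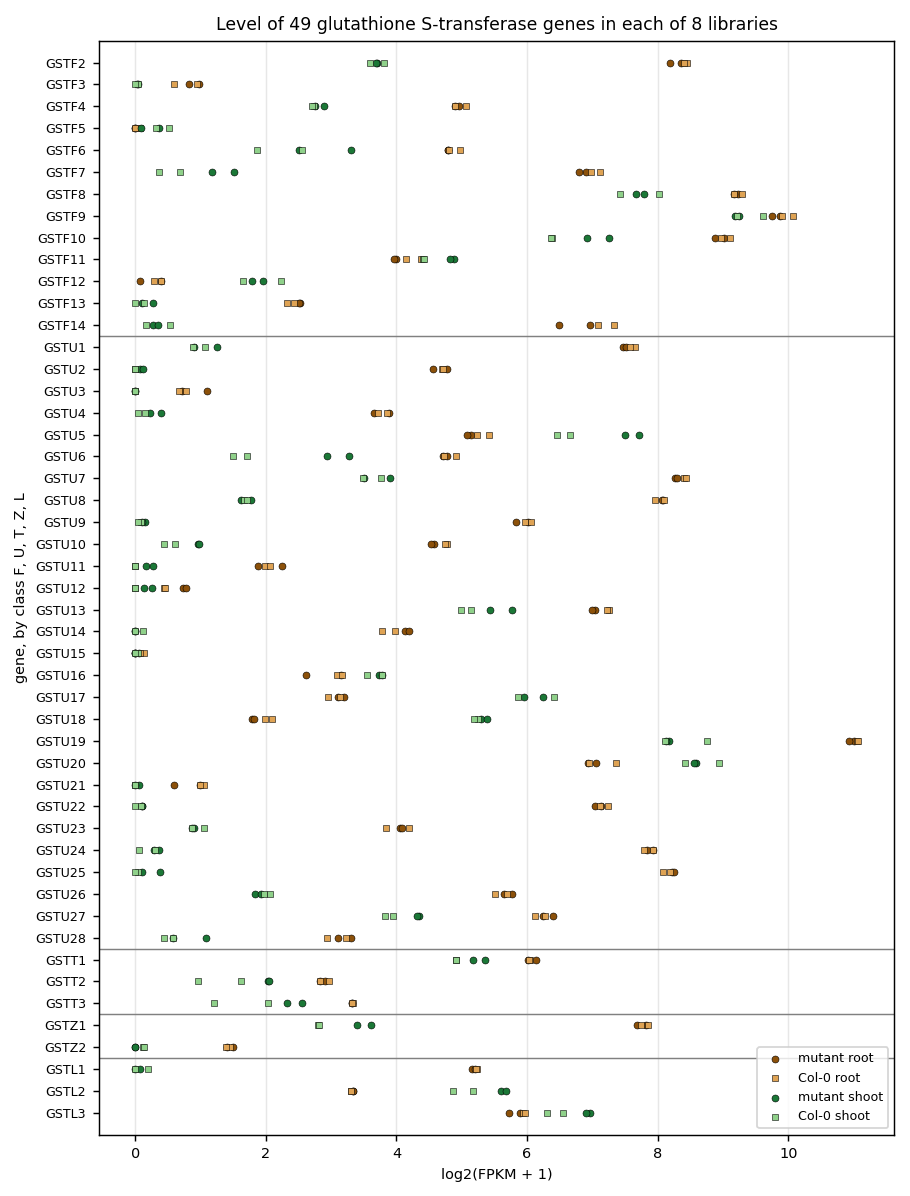
Level of each of the 49 genes in each library as log2(FPKM + 1), grouped by class from F at the top to L at the bottom; each point is 1 library and the colours mark the 4 groups. Root points lie right of shoot points for most genes, while GSTF11, GSTF12, GSTU5, GSTU16, GSTU17, GSTU18, GSTU20, GSTL2 and GSTL3 lie the other way, and the 2 genotypes of a tissue lie close together. The untested GSTF5, at most 0.0545 FPKM in root and 0.425 FPKM in shoot, also lies the other way.

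GSTU19 (AT1G78380; TAIR10 chromosome 1, 29486413 to 29487906), a tau enzyme known for its induction by herbicide safeners, was the most abundant member in root. It had 2065 and 1957 FPKM in mutant root, against 2118 and 2151 in Col-0 root, which made it the gene of rank 4 among all listed genes in both. In shoot it had 287 and 280 FPKM in the mutant, against 433 and 276 in Col-0. Of the Col-0 shoot libraries, replicate 1 stood well above both mutant shoots and replicate 2 just below them.

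The phi class followed with 3 neighbours in rank. GSTF9 (AT2G30860; chromosome 2, 13138997 to 13140245) had 933 and 858 FPKM in mutant root and 959 and 1070 in Col-0 root. It was also the highest member in shoot, at 606 and 581 FPKM in the mutant and 778 and 592 in Col-0. GSTF8 (AT2G47730), widely used as a marker of early stress responses, had 600 and 578 FPKM in mutant root, 627 and 572 in Col-0 root, 202 and 221 in mutant shoot and 258 and 171 in Col-0 shoot. These genes were high in both organs. GSTF10 (AT2G30870), known as the dehydration-responsive gene ERD13, had 514 and 470 FPKM in mutant root, 553 and 501 in Col-0 root, 120 and 152 in mutant shoot and 82.6 and 81.5 in Col-0 shoot. GSTF2 (AT4G02520), a camalexin-binding enzyme, had 325 and 292 FPKM in mutant root and 350 and 337 in Col-0 root. Unlike the 3 others it was low in shoot, at 12.0 and 12.0 FPKM in the mutant and 13.1 and 11.1 in Col-0. GSTU7 took the place of GSTF2 among the 5 highest in mutant root, with 308 and 312 FPKM, against 336 and 343 FPKM in Col-0 root; the tables give it a locus merged with MTPB, so its value may hold reads of that neighbour.

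The shoot had an order of its own below GSTF9. GSTU20 (AT1G78370; chromosome 1, 29484269 to 29485290), a tau enzyme known from light and jasmonate signalling and from glucosinolate metabolism, came second with 383 and 376 FPKM in mutant shoot and 488 and 339 in Col-0 shoot. GSTU5 (AT2G29450), a gene known to respond to auxin and herbicides, reached 179 and 209 FPKM in mutant shoot and 100.5 and 87.3 in Col-0 shoot. In root GSTU20 had 132 and 121 FPKM in the mutant and 122 and 163 in Col-0, and GSTU5 had 34.4 and 32.9 in the mutant and 41.8 and 36.7 in Col-0.

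By class, tau genes summed to 4067 ± 102 FPKM in mutant root and 4252 ± 23.2 in Col-0 root (SD, n = 2 each). Phi genes summed to 2582 ± 154 FPKM in mutant root and 2846 ± 4.62 in Col-0 root. In shoot both classes came to a like sum: 1074 ± 15.5 FPKM tau and 999 ± 21.1 FPKM phi in the mutant, and 1049 ± 252 FPKM tau and 1028 ± 198 FPKM phi in Col-0. Zeta genes differed most between organs, with a root to shoot ratio of 21.0 in the mutant and 36.7 in Col-0. The lambda class was the only one with a lower sum in root, at a ratio of 0.585 in the mutant and 0.905 in Col-0. For Col-0 the gap, between 106 ± 0.851 FPKM in root and 117 ± 15.1 in shoot, was smaller than the SD of the shoot libraries. The ratio was 3.79 and 4.05 for tau, 2.58 and 2.77 for phi, and 1.81 and 2.45 for theta, each in the mutant and in Col-0. After median-ratio rescaling over all 8 libraries, theta fell below 1 (0.978 in the mutant, 0.910 in Col-0) and phi reached 1.39 in the mutant and 0.997 in Col-0. Tau then had 2.04 and 1.45, zeta 11.3 and 13.5, and lambda 0.315 and 0.339, again in the mutant and in Col-0.

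**Figure D2:**
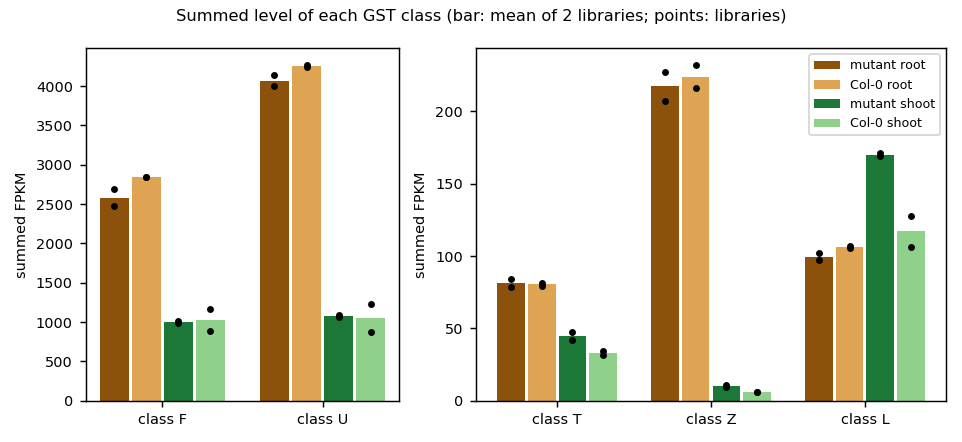
Summed FPKM of each GST class in the 4 groups; bars are means of 2 libraries and points are the libraries, with classes F and U in the left panel and T, Z and L in the right panel on an axis of its own. Classes F, U, T and Z stand higher in root than in shoot and class L does not; the 2 Col-0 shoot libraries lie far apart in classes F and U.

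The 3 small classes can be given in full. Among the zeta genes, GSTZ1 (AT2G02390; chromosome 2, 628899 to 631114), the maleylacetoacetate isomerase, had 226 and 205 FPKM in mutant root, 230.3 and 214 in Col-0 root, 9.48 and 11.2 in mutant shoot and 5.98 and 6.04 in Col-0 shoot. Its neighbour GSTZ2 (AT2G02380) had 1.83 and 1.64 FPKM in mutant root and 1.73 and 1.62 in Col-0 root. GSTZ2 was listed at 0 in both mutant shoots and at 0.0890 and 0.0977 FPKM in the Col-0 shoots. Thus nearly the whole zeta signal came from 1 gene.

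Of the theta genes, GSTT1 (AT5G41210) had 69.3 and 63.3 FPKM in mutant root, 65.4 and 64.4 in Col-0 root, 35.0 and 39.8 in mutant shoot and 29.2 and 29.1 in Col-0 shoot. GSTT2 (AT5G41240) had 6.13 and 6.53 FPKM in mutant root, 6.85 and 6.14 in Col-0 root, 3.10 and 3.12 in mutant shoot and 0.945 and 2.07 in Col-0 shoot. GSTT3 (AT5G41220) had 8.95 and 8.98 FPKM in mutant root, 9.13 and 9.04 in Col-0 root, 4.01 and 4.87 in mutant shoot and 1.30 and 3.10 in Col-0 shoot. GSTT1 supplied most of the class in every library, and GSTT2 and GSTT3 were lowest in Col-0 shoot replicate 1.

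Lambda genes split between the organs. GSTL1 (AT5G02780) had 34.7 and 35.7 FPKM in mutant root and 36.6 and 36.4 in Col-0 root. In shoot GSTL1 was listed at 0 and 0.0516 FPKM in the mutant and at 0 and 0.143 in Col-0. GSTL2 (AT3G55040), a plastid enzyme whose locus is merged with PGPS2 in the tables, had 9.05 and 9.12 FPKM in mutant root, 8.89 and 8.88 in Col-0 root, 47.4 and 49.99 in mutant shoot and 28.1 and 35.2 in Col-0 shoot. GSTL3 (AT5G02790) had 58.4 and 52.1 FPKM in mutant root, 60.02 and 61.4 in Col-0 root, 124 and 119 in mutant shoot and 78.5 and 92.5 in Col-0 shoot. Root and shoot values of each lambda gene did not overlap in either genotype. The same held for all 43 tested members, 34 higher and 9 lower in root in each genotype, so it is no trait of this class.

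Further tau genes were abundant in root. GSTU8 had 269 and 268 FPKM in mutant root and 273 and 248 in Col-0 root, against 2.43 and 2.09 in mutant shoot and 2.18 and 2.27 in Col-0 shoot. GSTU9 had 63.4 and 55.7 FPKM in mutant root and 65.5 and 61.7 in Col-0 root, against at most 0.109 FPKM in shoot. GSTU26 had 49.1 and 53.3 FPKM in mutant root and 50.6 and 44.8 in Col-0 root. These were root genes in both genotypes. In shoot GSTU27 was well above these, with 19.2 and 19.0 FPKM in the mutant and 14.4 and 13.2 in Col-0. GSTU2, GSTU4, GSTU10, GSTU14 and GSTU23 lay between 11.5 and 26.4 FPKM in the root libraries and at most at 1.08 FPKM in shoot. GSTU11 and GSTU28 were rarer still, with 2.68 to 8.88 FPKM in root and at most 1.12 FPKM in shoot. Among the phi genes GSTF4, whose locus is merged with a neighbour, had 28.9 and 30.2 FPKM in mutant root and 28.7 and 32.6 in Col-0 root, against 5.74 and 6.40 in mutant shoot and 5.64 and 5.56 in Col-0 shoot.

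The 6 genes under the filter on low values were close to silent. GSTF3, the near copy of GSTF2, had 0.974 and 0.780 FPKM in mutant root, against 0.516 and 0.933 in Col-0 root, and at most 0.0307 FPKM in shoot. GSTU12 had 0.668 and 0.721 FPKM in mutant root, against 0.362 and 0.368 in Col-0 root. In shoot GSTU12 had 0.200 and 0.0941 FPKM in the mutant and was listed at 0 in both Col-0 libraries. GSTU15 did not exceed 0.103 FPKM in any library, and GSTU3 and GSTU21 did not exceed 1.13 FPKM.

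Root was then set against shoot within each genotype, a comparison that the 4 groups allow. In the mutant 34 of 43 tested genes (79.1%) were higher in root, where 58.7% of all tested genes were, and 9 (20.9%) were lower, where 17.7% of all were. In Col-0 the same 34 were higher, where 72.1% of all tested genes were, and 8 (18.6%) were lower, where 15% of all were. The direction was the same for all 43 genes in both genotypes; GSTF11 was the one not called in Col-0 (adjusted p = 0.291). In bulk tissue, fewer cells of a type and less RNA per cell cannot be told apart. The median difference of all tested genes was itself 0.81 in the mutant and 1.23 in Col-0, and the 10 highest genes of a library took 3.48% to 3.94% of all FPKM in root and 12.9% to 17.6% in shoot.

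The difference was often large. A root level more than 16-fold above shoot on the FPKM + 1 scale (a log2 difference over 4) was reached by 14 of 43 genes (32.6%) in each genotype, against 3.14% of all tested genes in the mutant and 3.47% in Col-0. For a log2 difference over 2 the numbers were 22 genes (51.2%) against 14.1% of all in the mutant, and 28 genes (65.1%) against 22.1% of all in Col-0. The median difference of the family was 2.11 in the mutant and 2.62 in Col-0. After rescaling over all libraries, which brings the median of all genes to 0.06 and 0.09, 27 genes (62.8%) were called higher in root in the mutant, where 30.4% of all genes were, and 31 (72.1%) in Col-0, where 32.5% were. Only GSTF9 and GSTT1 then took the opposite sign, without a call in either genotype, and GSTF8, GSTF6, GSTU13, GSTT2 and GSTT3 kept a positive difference but lost the call in at least 1 genotype.

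**Figure D3:**
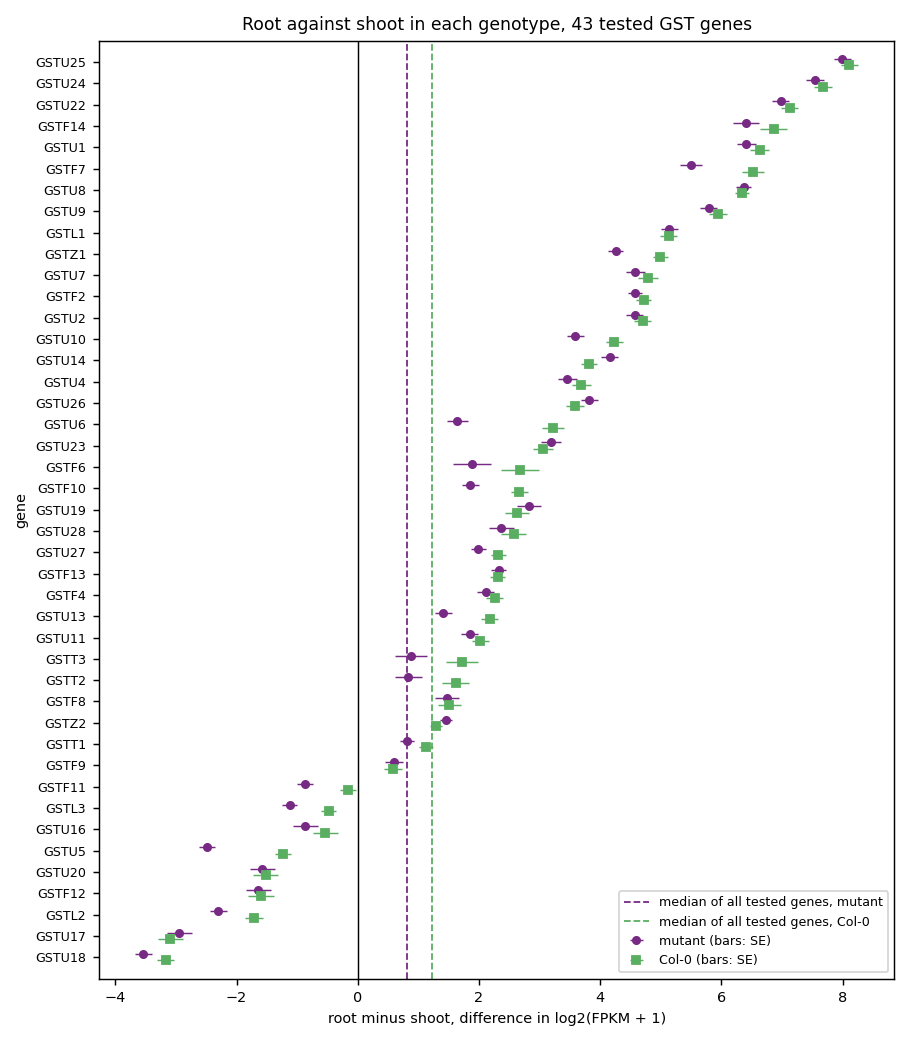
Root minus shoot difference in log2(FPKM + 1) for the 43 tested genes, ordered by the Col-0 value, with the mutant above and Col-0 below in each row; bars are the SE from limma and dashed lines the median of all tested genes. The upper 34 genes lie right of 0 in both genotypes and the lower 9 left of it, and the genes at the top exceed the dashed lines by more than 5 units.

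The 5 largest root excesses in Col-0 came from genes that were almost silent in shoot. GSTU25 (AT1G17180) and GSTU24 (AT1G17170), enzymes known for the detoxification of the explosive trinitrotoluene, led them. GSTU25 had 297 and 305 FPKM in mutant root and 290 and 271 in Col-0 root, against 0.299 and 0.0714 in mutant shoot and 0.0292 and 0 in Col-0 shoot. The log2 difference was 8.0 in the mutant and 8.12 in Col-0 (SE 0.14 each, adjusted p = 1.39e-07 and 1.43e-07). GSTU24 had 242 and 228 FPKM in mutant root and 242 and 221 in Col-0 root, against 0.289 and 0.221 in mutant shoot and 0.233 and 0.0377 in Col-0 shoot. Its log2 difference was 7.55 in the mutant and 7.68 in Col-0. GSTU22 (AT1G78340) had 140 and 131 FPKM in mutant root and 151 and 137 in Col-0 root, against at most 0.0798 FPKM in any shoot library. GSTF14 (AT1G49860) had 124 and 88.5 FPKM in mutant root and 135 and 160 in Col-0 root, against at most 0.443 FPKM in shoot. GSTU1 (AT2G29490) had 177 and 182 FPKM in mutant root and 199 and 189 in Col-0 root, against at most 1.39 FPKM in shoot. No root value of these 5 genes came near a shoot value. With the depth unknown, a ratio to a shoot level under 1 FPKM has no stated precision.

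In the other direction the 5 largest differences in Col-0 were GSTU18, GSTU17, GSTL2, GSTF12 and GSTU20; in the mutant GSTU5 (-2.49) stood ahead of GSTL2. GSTU18 (AT1G10360) had 2.44 and 2.53 FPKM in mutant root and 3.29 and 2.99 in Col-0 root, against 38.3 and 40.9 in mutant shoot and 37.2 and 35.4 in Col-0 shoot. Its log2 difference was -3.54 in the mutant and -3.17 in Col-0 (SE 0.14 each, adjusted p = 7.13e-07 and 1.14e-06). GSTU17 (AT1G10370), the dehydration-responsive gene ERD9, which is known from light signalling and drought tolerance, had 8.20 and 7.63 FPKM in mutant root and 7.78 and 6.70 in Col-0 root, against 74.9 and 61 in mutant shoot and 84.2 and 56.9 in Col-0 shoot. Its log2 difference was -2.94 in the mutant and -3.09 in Col-0. GSTF12 (AT5G17220), known as TRANSPARENT TESTA 19 for its need in carrying anthocyanins and proanthocyanidins to the vacuole, had 0.0509 and 0.320 FPKM in mutant root and 0.220 and 0.310 in Col-0 root, against 2.89 and 2.47 in mutant shoot and 3.70 and 2.14 in Col-0 shoot. The log2 difference of GSTU20 was -1.58 in the mutant and -1.52 in Col-0, and that of GSTL2 was -2.30 and -1.72. The other genes on the shoot side were GSTU5, GSTU16, GSTL3 and GSTF11. GSTF11 (AT3G03190), which together with GSTU20 is known from the aliphatic glucosinolate pathway, had 14.9 and 14.6 FPKM in mutant root and 16.7 and 19.8 in Col-0 root, against 28.5 and 27.3 in mutant shoot and 20.3 and 20.6 in Col-0 shoot.

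Most members sit beside another one. With neighbours within 10 kb taken as 1 array, 36 of the 49 genes fell into 12 arrays of 2 to 7 genes, each of a single class, and 13 stood alone. Array neighbours often differed in level by orders of magnitude and sometimes in the organ where they were higher. On chromosome 2, positions 12616564 to 12632473 hold 7 tau genes, in the order GSTU7, GSTU6, GSTU5, GSTU4, GSTU3, GSTU2 and GSTU1. In root their means ranged over 0.888 to 310.0 FPKM in the mutant and 0.654 to 340 in Col-0, with GSTU3 lowest and GSTU7 highest. In shoot GSTU3 was listed at 0 in all 4 libraries, and GSTU5 stood highest with 194 ± 20.9 FPKM in the mutant and 93.9 ± 9.33 in Col-0 (SD, n = 2 each). GSTU5 was the only gene of this array that was higher in shoot, with a root minus shoot difference of -2.49 in the mutant and -1.24 in Col-0 (SE 0.13 each, adjusted p = 3.64e-06 and 0.000114).

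A like exception lay in the array of 5 tau genes on chromosome 1, positions 29467437 to 29487906, in the order GSTU23, GSTU22, GSTU21, GSTU20 and GSTU19. There GSTU20 was higher in shoot between GSTU19, the most abundant root member, and GSTU21, which had 0.988 and 0.516 FPKM in mutant root and 1.09 and 0.989 in Col-0 root. The lambda pair on chromosome 5, positions 630876 to 635125, was split as well: GSTL1 was a root gene and GSTL3 was higher in shoot. In the phi array of GSTF7, GSTF6, GSTF5 and GSTF4 (chromosome 1, 658657 to 666452) the silent member was GSTF5, at most 0.0545 FPKM in root and 0.425 FPKM in shoot. GSTF7 had 119 and 110 FPKM in mutant root and 138 and 125 in Col-0 root, and GSTF6, which is known for the conjugation step of camalexin synthesis, had 26.8 and 26.6 in mutant root and 30.5 and 27.0 in Col-0 root. By contrast, GSTU18 and GSTU17 (chromosome 1, 3395558 to 3398358) were both higher in shoot. The remaining arrays with 2 tested genes or more had every tested gene higher in root; of GSTU15 and GSTU16, the one tested, GSTU16, was higher in shoot. GSTF6 and GSTF7, and likewise GSTF2 and GSTF3, are close copies, so fragments may have been shared between them in the authors' counting.

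**Figure D4:**
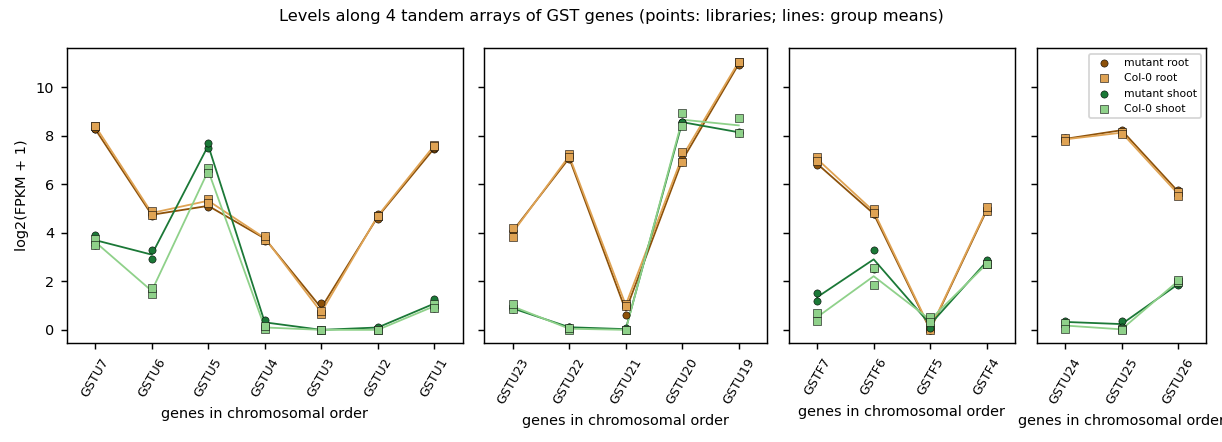
Level as log2(FPKM + 1) along 4 tandem arrays, with genes in chromosomal order; points are libraries and lines join group means. Within the array of 7 genes the shoot lines peak at GSTU5 and pass above the root lines there, in the array of 5 the shoot lines pass above the root lines at GSTU20 alone, and the mutant shoot lies above Col-0 shoot at GSTU6 and GSTU5.

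Between mutant and Col-0 roots no GST passed the test in limma: 0 of 43 genes were called, where 0.01% of all tested genes were called higher and 0% lower. Nor did any of the 43 reach an unadjusted p under 0.05, a level reached by 0.991% of all tested genes on the higher side and 1.58% on the lower. The differences ran from -0.49 to 0.28 with a median of -0.05, against a median of -0.00 over all tested genes, and their SE ran from 0.097 to 0.316. A positive difference was seen in 14 genes and a negative one in 29. The mutant exceeded Col-0 in every library in 4 genes (9.30%), as in 20.5% of all tested genes. It lay below in every library in 16 (37.2%), as in 22.9% of all.

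The lowest differences in root belonged to GSTF14, GSTF11, GSTU18, GSTU16 and GSTU13. GSTF14 had 124 and 88.5 FPKM in mutant root, against 135 and 160 in Col-0 root (log2 difference -0.49, SE 0.22, adjusted p = 1). GSTU13 (AT1G27130), known from indole glucosinolate breakdown in defence, had 130.4 and 126 FPKM in mutant root, against 153 and 149 in Col-0 root (-0.23, SE 0.14, adjusted p = 1). GSTF11 (-0.29) and GSTU18 (-0.25) have their FPKM values above. Of these 5 genes GSTU16 alone overlapped between the genotypes (-0.24), with 7.86 and 5.16 FPKM in mutant root and 7.51 and 8.0 in Col-0 root. At the other end, GSTU14 had 16.5 and 17.2 FPKM in mutant root, against 12.7 and 14.8 in Col-0 root (0.28, SE 0.14, adjusted p = 1). GSTF13 had 4.73 and 4.69 FPKM, against 4.41 and 3.99 FPKM in Col-0 root (0.14), and GSTU27 had 83.2 and 74.4 FPKM, against 76.2 and 68.8 FPKM (0.12). GSTU17 and GSTU28 followed with differences of 0.12 each. GSTU28 had 8.88 and 7.57 FPKM in mutant root, against 8.40 and 6.67 in Col-0 root.

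In shoot, 2 neighbouring tau genes were called higher in the mutant, close to the threshold, and the rest of the family did not pass. Of 43 genes, 2 were called higher (4.65%), where 0.961% of all tested genes were, and 0 lower, where 0.06% of all were. GSTU6 (AT2G29440; chromosome 2, 12620060 to 12621148) had 6.62 and 8.69 FPKM in mutant shoot, against 1.83 and 2.28 in Col-0 shoot. The log2 difference was 1.5 (SE 0.18, adjusted p = 0.0447), and the ratio of the means was 3.73. GSTU5 (chromosome 2, 12624586 to 12625637), the next gene along, had 179 and 209 FPKM in mutant shoot, against 100.5 and 87.3 in Col-0 shoot, a log2 difference of 1.04 (SE 0.13, adjusted p = 0.046) and a ratio of 2.07. For both genes the genotypes did not overlap in shoot, with the mutant higher, as in 56.8% of all tested genes. In root neither was higher: GSTU6 had 25.3 and 26.4 FPKM in the mutant and 29.2 and 25.6 in Col-0, and GSTU5 was slightly lower in the mutant, with a difference of -0.21 (SE 0.13, adjusted p = 1). The 4 other tested genes of the array had differences of 0.08 to 0.21, of which those of GSTU7 and GSTU1 turned negative after the rescaling over all libraries.

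Both calls sat close to the threshold. Neither held after median-ratio rescaling, and both did under quantile normalization within the tissue. The median difference of all tested genes in shoot was 0.31, so that GSTU6 lay 1.18 and GSTU5 0.73 above it. After median-ratio rescaling within the tissue, which sets that median to 0, GSTU6 had a difference of 1.13 (adjusted p = 0.0659) and GSTU5 one of 0.57 (adjusted p = 0.168), and 0 of 43 genes passed, where 0.0751% of all tested genes were called higher. Under quantile normalization, where the median of all genes was -0.01, GSTU6 had 0.99 (adjusted p = 0.0431) and GSTU5 1.01 (adjusted p = 0.0307), with 1.31% of all tested genes called higher. Over the 19 alternatives run for each, the difference stayed between 0.99 and 1.84 for GSTU6 and between 0.52 and 1.15 for GSTU5. The adjusted p by limma reached 0.344 for each, and 6 alternatives kept each call. Among these were a filter of mean 5 FPKM, quantile normalization and removal of the length trend. The rest were the settings without a Col-0 shoot replicate, which leave that group 1 library and no spread of its own. The Col-0 shoot libraries weigh most: without replicate 1, 15 genes were called higher and 0 lower, where 23.8% of all tested genes were called higher and 2.31% lower. Without replicate 2, 14 were called higher and 3 lower, where 55.5% and 10.5% of all were. Without any one of the other 6 libraries the count was 0.

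**Figure D5:**
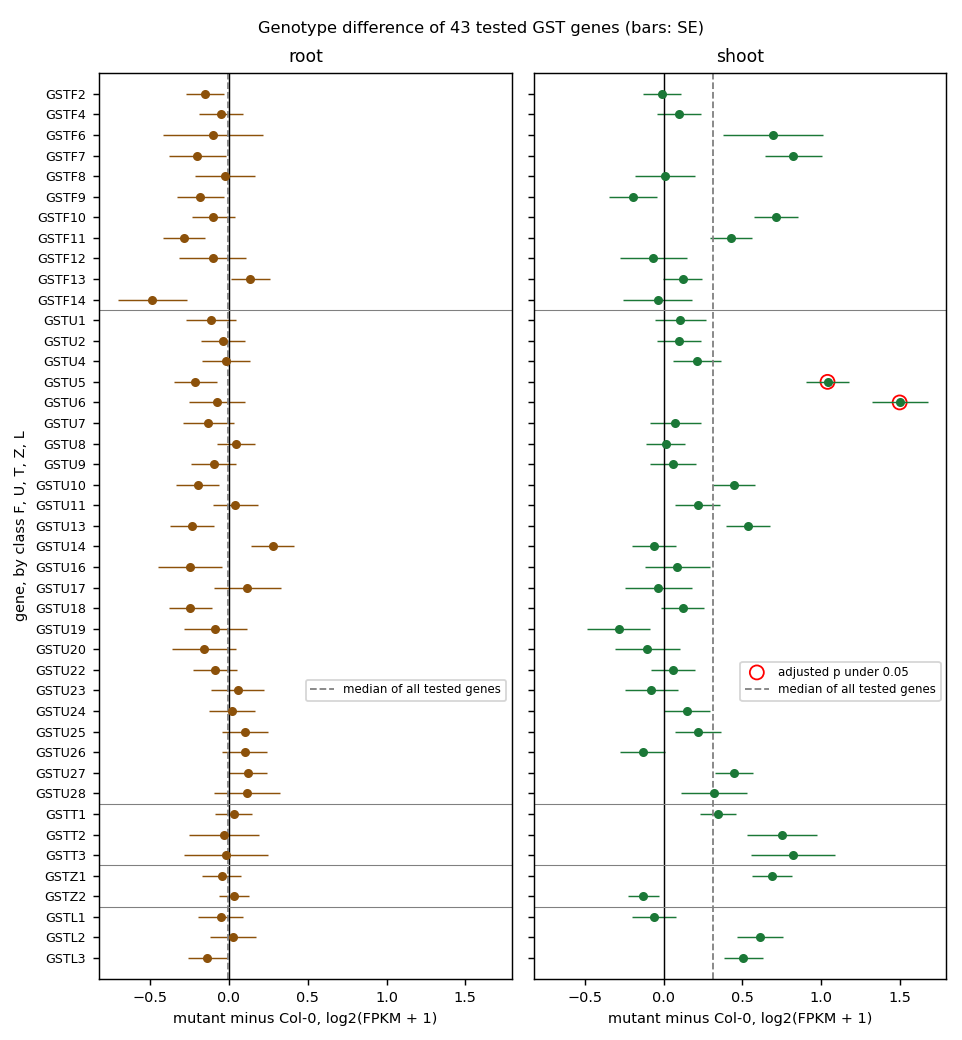
Mutant minus Col-0 difference in log2(FPKM + 1) for the 43 tested genes in root (left) and shoot (right), by class; bars are the SE from limma, dashed lines the median of all tested genes (-0.00 in root, 0.31 in shoot) and red circles mark an adjusted p under 0.05. In root the points stay between -0.49 and 0.28, while in shoot GSTU6 at 1.5 and GSTU5 at 1.04 stand to the right of all others.

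Below these 2 genes the shoot held many differences that did not pass. In 14 genes (32.6%) the unadjusted p was under 0.05, all with a higher mutant level, against 35.2% of all tested genes higher and 3.52% lower at that level. The median of the family was 0.12, under the 0.31 of all genes, and 16 of 43 genes lay above that median. A positive difference was seen in 31 genes (72.1%), against 75.6% of all tested genes (47.9% in root). The mutant exceeded Col-0 in every library in 22 genes (51.2%) and lay below it in 2 (4.65%), against 56.8% and 9.48% of all. After rescaling within the tissue the family split into 22 positive and 21 negative differences. Photosynthesis markers had a summed level of 38390 and 34215 FPKM in mutant shoot, against 58875 and 41275 in Col-0 shoot, with a negative difference in 7 of 7 genes and 0 called; their part in the GST values was not tested.

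By class, the tau and phi medians were 0.10 each, below the 0.31 of all genes. All 3 theta genes were positive, although GSTT1 (0.35, adjusted p = 0.0941) turned to -0.11 after rescaling within the tissue. GSTT3 followed GSTU5 and GSTF7 with a difference of 0.82 (SE 0.27, adjusted p = 0.093), and GSTT2 had 0.75 (SE 0.22, adjusted p = 0.085). Without Col-0 shoot replicate 1 these differences were 0.40 and 0.42. GSTF7 (AT1G02920), a pathogen-responsive phi gene, had 1.27 and 1.86 FPKM in mutant shoot, against 0.603 and 0.294 in Col-0 shoot (0.82, SE 0.18, adjusted p = 0.0654). GSTF10 with 0.71 (adjusted p = 0.0563), GSTZ1 with 0.69 (adjusted p = 0.053) and GSTL2 with 0.61 (adjusted p = 0.0692) came next in size among genes with an SE under 0.15. None of these passed, and their FPKM values, given above, did not overlap between the genotypes, with the mutant higher, as in 56.8% of all tested genes. GSTF6, with a difference of 0.70 but a larger SE of 0.32, did overlap (adjusted p = 0.149 by limma). It had 4.69 and 8.92 FPKM in mutant shoot, against 4.88 and 2.66 in Col-0 shoot.

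The lowest differences in shoot fell on the 3 most abundant members and on 2 rare ones. GSTU19 had a difference of -0.28 (SE 0.20, adjusted p = 0.311), GSTF9 of -0.19 (SE 0.15, adjusted p = 0.358) and GSTU20 of -0.10 (SE 0.21, adjusted p = 0.751). In all 3, Col-0 replicate 1 was the highest library and Col-0 replicate 2 lay below at least 1 mutant library. Without Col-0 replicate 1 the differences were 0.04, 0.00 and 0.16, and without Col-0 replicate 2 they were -0.61, -0.39 and -0.36. GSTU26 had 2.58 and 2.81 FPKM in mutant shoot, against 2.91 and 3.19 in Col-0 shoot (-0.13, SE 0.14, adjusted p = 0.517). For GSTZ2, listed at 0 in both mutant shoots, no fold is given.

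The 2 Col-0 shoot libraries stand apart from each other more than the libraries of other groups do. Over the 17 members with a mean of at least 10 FPKM there, replicate 1 over replicate 2 had a median ratio of 1.15 and ran from 0.798 to 1.57. In mutant root, Col-0 root and mutant shoot the medians were 1.04, 1.03 and 0.959. The ratios ran from 0.855 to 1.40 in mutant root, 0.750 to 1.14 in Col-0 root and 0.746 to 1.23 in mutant shoot. Over all tested genes the difference between genotypes in shoot grew with the length of the locus (Spearman's rho 0.53 across 19985 genes in shoot and 0.40 in root, a description with no p, since genes share the libraries). GST loci are short, with a median span of 1196 bp, against 2403 bp for all tested genes. With that trend removed within each tissue, GSTF7 joined GSTU6 and GSTU5 among the called genes, where 3.45% of all tested genes were called higher, and the family median in shoot was 0.10, against -0.01 for all genes. The part of these library and length differences in the GST values was not tested.

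Whether the genotype difference itself differed between shoot and root was tested as an interaction. It was called for 0 of 43 genes by limma, where 0% of all tested genes were called in either direction. An unadjusted p under 0.05 was reached by 11 genes (25.6%), all with the more positive difference in shoot, against 14.3% of all tested genes higher and 1.2% lower. GSTU6 had the largest value, 1.57, and GSTU5 followed with 1.25, both with an adjusted p of 0.247, against a median of 0.34 over all genes. The higher values of GSTU6 and GSTU5 in mutant shoot are therefore not shown to be specific to that organ.

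Other genes of glutathione metabolism were read from lists written by locus. In root 0 genes of any list passed. For synthesis, reduction and plastid transport of glutathione (GSH1, GSH2, 2 glutathione reductases and the thiol transporters CLT1, CLT2 and CLT3), 7 of 7 genes were positive in both tissues, with a median of 0.08 in root and 0.50 in shoot; the largest in shoot were ATGR1, glutathione reductase, at 0.70 (adjusted p = 0.0883) and GSH1, the first enzyme of glutathione synthesis, at 0.69 (adjusted p = 0.0851). GSH1 had 101 and 98.8 FPKM in mutant shoot, against 48.5 and 77.8 in Col-0 shoot. In root the largest were CLT1 at 0.22 and ATGR1 at 0.20. After rescaling within the tissue the shoot median of this list was 0.13, with 5 positive and 2 negative.

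In shoot 0.961% of all tested genes were called higher and 0.06% lower. Of 10 tested genes for the breakdown of glutathione and its conjugates, 1 was called higher there and 0 lower. It was AT4G30530, a gamma-glutamyl peptidase, with 143.7 and 182 FPKM in mutant shoot, against 86.2 and 82.1 in Col-0 shoot (log2 difference 0.94, adjusted p = 0.0479). PCS1, phytochelatin synthase, which also trims glutathione conjugates, had the larger difference of 1.82 but wide values, 60.3 and 84.1 FPKM in mutant shoot, against 12.6 and 29.8 in Col-0 shoot (adjusted p = 0.0595). The median of the list was 0.49 in shoot (0.07 after rescaling within the tissue, with 0 calls) and -0.05 in root, where PCS2 at -0.30 and AT1G44790 at -0.22 were lowest.

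The ABCC transporters, which include the vacuolar pumps of glutathione conjugates, had 13 of 13 tested genes positive in both tissues, with a median of 0.26 in root and 1.08 in shoot and 0 calls. ABCC3 had 22.7 and 25.6 FPKM in mutant shoot, against 3.53 and 13.9 in Col-0 shoot (1.61, adjusted p = 0.0875). ABCC8 was next at 1.33, and in root ABCC11 at 0.44 and ATMRP13 at 0.34 were the largest. These loci are long, with a median span of 5736 bp. With the length trend removed the shoot median was 0.34 with 9 positive and 4 negative, and without Col-0 shoot replicate 1 it was 0.36 with 12 positive.

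The remaining lists had 0 calls between genotypes in either tissue. Glutathione peroxidases, which reduce peroxides, had a median of 0.07 in shoot and -0.07 in root, and -0.36 in shoot after rescaling within the tissue; GPX7 at 0.61 and GPX3 at 0.60 were the largest in shoot, and GPX1 at -0.19 and GPX6 at -0.17 the lowest in root. Other proteins with a GST fold, the dehydroascorbate reductases among them, had 7 of 7 negative in root (median -0.11) and 4 of 7 positive in shoot (median 0.19, or -0.26 after rescaling within the tissue). TCHQD at 0.91 and DHAR1 at 0.50 were the largest there. The TGA factors, which bind the as-1 elements of GST promoters, and their partner SCL14 had 7 of 7 positive in shoot (median 0.60, or 0.25 after rescaling) and 1 of 7 in root (median -0.04), with TGA4 at 0.75 and SCL14 at 0.72 the largest in shoot and TGA3 at -0.17 the lowest in root. Other detoxification genes had 8 of 8 positive in shoot (median 0.29, or 0.09 after rescaling with 5 positive) and a median of 0.02 in root, with CYP81D8 at 1.18 and OPR1 at 0.60 the largest in shoot.

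Between organs the lists differed. Of all tested genes, 58.7% in the mutant and 72.1% in Col-0 were called higher in root. After rescaling over all libraries these shares were 30.4% and 32.5%. All 8 detoxification genes were called higher in root in both genotypes, with a median of 4.30 in the mutant and 4.75 in Col-0; after rescaling over all libraries 7 and 8 were called, with medians of 3.47 and 3.54. OPR1, a close copy of OPR2, had 815 and 783 FPKM in mutant root and 816 and 741 in Col-0 root, against 47.0 and 54.3 in mutant shoot and 29.8 and 36.5 in Col-0 shoot. Glutathione peroxidases had 5 genes higher and 2 lower in root in each genotype, the lower ones being the plastid enzymes GPX1 and GPX7. Of the TGA list, 6 of 7 genes were called higher in root in the mutant and 7 of 7 in Col-0, or 4 and 5 after rescaling over all libraries, when the medians of 1.22 and 1.82 became 0.39 and 0.56. TGA1 had 239 and 219 FPKM in mutant root and 255 and 235 in Col-0 root, against 4.17 and 3.93 in mutant shoot and 1.64 and 3.27 in Col-0 shoot. The genes for synthesis, reduction and plastid transport of glutathione had a median close to that of all genes, 1.01 in the mutant and 1.38 in Col-0.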

How the data were processed

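RNA-seq of 8 libraries gave 1 table per library, in which the authors deposited FPKM values per gene with a name and a locus, per the file headers; only genes above 0 are listed, and a missing gene was taken as 0. The build is TAIR10 per the submitters' processing notes. Sources used here name no aligner, counting program, strand use or read number. The files hold no counts, so no count model was run, and the precision set by depth cannot be computed. The deposited values were used without further scaling. Coordinates are those of the tables with 1 added to the start; overlapping genes share a merged locus there, as 3 members do (GSTF4 with AT1G02952, GSTU7, GSTL2). Genes with a mean of at least 1 FPKM over the libraries of root or of shoot were fitted as log2(FPKM + 1) with limma 3.58.1 in R 4.3.3 (4 group means, 4 residual degrees of freedom, moderation with mean trend, robust), with Benjamini-Hochberg adjustment over all tested genes of a contrast and a threshold of 0.05. The procedure was tested on simulated data with the same spread for every gene and group. The libraries here differ in spread between groups, so that test does not vouch for the shoot calls. Contrasts were mutant minus Col-0 in each tissue, their difference, and root minus shoot in each genotype; tables used pandas 2.3.3 in Python 3.11.15. Named genes are those that passed, the 5 largest differences each way between genotypes and, in Col-0, between organs, the 5 highest members per organ, all of classes T, Z and L, and up to 2 per list and tissue; the other members were given values after theirs were seen, to cover the family. Members and lists were chosen with earlier results of these data known. Alternatives were another pseudocount, other filters, rescalings, a replicate block, other moderation, separate tissues and each library left out; median-ratio rescaling within a tissue without Col-0 shoot replicate 1 was added after seeing the data.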

Additional observations from a re-analysis of the deposited data

How the results depend on the processing

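In root the count of called GST genes was 0 under all alternatives run. The shoot count of 2 became 0 with a pseudocount of 0.1, with no filter, with median-ratio rescaling over all libraries or within a tissue, with the replicate block, with moderation without trend and with each tissue fitted alone; it was 5 with rescaling within a tissue and without Col-0 shoot replicate 1 (6.65% of all tested genes called higher, 6.83% lower), and 0 to 17 with each library left out in turn. A left-out library leaves its partner alone, which is then assumed to vary like the other groups. The interaction count of 0 became 3 under that same added setting (1.56% of all genes higher, 1.05% lower) and 0 to 13 with each library left out. With either Col-0 shoot replicate left out, calls rose steeply among all tested genes too, both in shoot and in the interaction. The higher GST counts under those settings therefore cannot be read as a result about the family. Counts of the organ comparison stayed at 36 to 47 of the tested genes. Of the 43 tested genes, 11 changed sign in shoot with median-ratio rescaling over all libraries, 9 with that within a tissue, 9 with quantile normalization and 3 with the length trend removed; in root these counts were 0, 0, 2 and 8, and in the organ comparison GSTF9 and GSTT1 changed sign in both genotypes under the first. Among the genes with the 5 largest differences each way, signs changed for GSTU20 in shoot, 0.00584 with quantile normalization within a tissue, and, over the libraries left out, for GSTU16 in root (-0.51 to 0.0177), GSTU28 in root (-0.0305 to 0.26) and, in shoot, GSTU19 (-0.61 to 0.0400), GSTF9 (-0.39 to 0.00296) and GSTU20 (-0.36 to 0.16); the cause was not tested. For those 30 largest differences (10 each in root, in shoot and between Col-0 organs), of 557 comparisons with an alternative 515 kept direction and side of the threshold, 26 lost a call, 10 gained one and 6 changed sign. The 26 lost calls were all those of GSTU6 and GSTU5 in shoot, the only genotype calls among the 30. No root difference had a call to lose, and every organ difference kept its call. Replicate numbers are shared across groups, but nothing says that they pair the samples, so the main fit did not pair them. Deviations of like-numbered libraries correlated at 0.043 in root and 0.118 in shoot. Over all pairs of groups they ran from -0.111 (Col-0 root with mutant shoot) to 0.153 (mutant root with Col-0 shoot). With 2 libraries per group these values cannot decide whether the samples are paired. The replicate block moved the shoot count to 0 and left root and interaction at 0. Depth limits members under 1 FPKM, most of which lie in shoot.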
